A study of Mus musculus with 2 samples.

Results

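A rule for cycling dendritic cells (DC) that lack the markers of type 1 conventional DC (cDC1) took 384 of 9934 kept spleen cells. The cells were chosen on raw UMIs (unique molecular identifiers, each a counted transcript molecule) in barcodes with at least 500 genes and at most 10% mitochondrial UMIs. A cell was taken if Mki67 and Top2a together gave 2 or more UMIs, Xcr1, Clec9a, Cd79a and Nkg7 were at 0, and Sirpa, Ltb, Cd209a, Tcf4 and Flt3 together gave at least 1. The last condition asks for a transcript of type 2 conventional DC (cDC2), plasmacytoid DC or DC in general, and the zeros leave out cDC1, B cells and NK cells. Cells with 3 or more UMIs of Ccr7 or of Fscn1, genes of mature migrating DC, were held apart as possible doublets. That left 196 cells, called cycling Xcr1-negative DC here, 34 in the L-cDC library and 162 in the M-cDC library, and 188 cells apart, 84 and 104.

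L-cDC and M-cDC are conventional DC of the spleen, enriched with antibody to CD11c and then sorted by flow cytometry. The donors were naive, untreated mice of 7 to 9 weeks, kept free of specific pathogens, that carried both Il7r-cre and the Cre-dependent reporter Rosa26-lsl-tdTomato. In both groups Cre recombinase is driven by Il7r, the gene of the interleukin 7 receptor alpha chain, so tdTomato stays on in a cell once it or an ancestor has used Il7r strongly enough to recombine the reporter. L-cDC is the tdTomato+ sort and M-cDC the tdTomato- sort. Each group had 1 library, and the labels do not say how many mice gave it, so no difference between libraries could be tested, no p-value is given, and all 95% intervals cover counting error only.

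Type 2 DC present antigen on MHC class II to CD4 T cells, carry the receptor SIRPa, and in spleen include a Notch2-dependent form and a form with monocyte-like genes. Most DC in tissue come from precursors of the bone marrow that arrive through the blood, and DC already in the spleen can still divide under the growth factor Flt3 ligand. In a dividing cell, E2F factors drive genes of DNA replication in S phase, and the MuvB complex with B-Myb and FoxM1 drives genes of mitosis in G2 and M through a promoter element called the cell cycle genes homology region (CHR), often placed beside CCAAT boxes bound by NF-Y.

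The promoters of 6 cycle genes show these elements as letters, and were chosen because the cells are defined by Top2a and Mki67 and because the results below turn on the balance of G2 and M genes against S genes. Each sequence reads 5′ to 3′ toward the gene and ends at the base before the transcription start, from RefSeq on GRCm38.p6. Capitals mark CHR letters (TTTGAA or TTCGAA) and CCAAT in the first 5, and E2F letters (TTTCCCGC, TTTGGCGC, TTTCGCGC or TTTGCCGC) in Mcm6, each searched on both strands, and adjoining capitals can hold overlapping matches. Top2a lies at chr11:99024190-99024369 on the minus strand, Cdk1 at chr10:69352913-69353092 (minus), Ccnb2 at chr9:70421555-70421734 (minus), Ube2c at chr2:164769749-164769928 (plus), Mki67 at chr7:135716380-135716559 (minus) and Mcm6 at chr1:128359706-128359885 (minus).
Top2a: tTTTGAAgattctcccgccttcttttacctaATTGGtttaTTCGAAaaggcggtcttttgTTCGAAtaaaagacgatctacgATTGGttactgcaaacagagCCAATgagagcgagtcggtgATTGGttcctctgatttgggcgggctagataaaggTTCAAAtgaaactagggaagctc
Cdk1: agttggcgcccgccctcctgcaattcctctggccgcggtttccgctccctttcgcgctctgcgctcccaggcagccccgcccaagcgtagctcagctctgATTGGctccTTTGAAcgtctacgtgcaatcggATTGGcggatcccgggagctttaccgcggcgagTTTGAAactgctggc
Ccnb2: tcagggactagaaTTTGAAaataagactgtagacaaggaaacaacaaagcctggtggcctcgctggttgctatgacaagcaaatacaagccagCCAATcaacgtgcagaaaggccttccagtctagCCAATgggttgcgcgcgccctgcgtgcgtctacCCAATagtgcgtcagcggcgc
Ube2c: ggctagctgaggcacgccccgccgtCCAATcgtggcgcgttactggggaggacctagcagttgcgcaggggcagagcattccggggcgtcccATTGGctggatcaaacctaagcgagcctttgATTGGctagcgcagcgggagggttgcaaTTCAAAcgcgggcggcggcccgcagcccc
Mki67: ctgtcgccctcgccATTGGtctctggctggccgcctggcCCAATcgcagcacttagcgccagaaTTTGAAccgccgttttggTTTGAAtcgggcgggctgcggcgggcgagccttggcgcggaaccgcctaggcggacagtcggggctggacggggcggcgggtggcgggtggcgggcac
Mcm6: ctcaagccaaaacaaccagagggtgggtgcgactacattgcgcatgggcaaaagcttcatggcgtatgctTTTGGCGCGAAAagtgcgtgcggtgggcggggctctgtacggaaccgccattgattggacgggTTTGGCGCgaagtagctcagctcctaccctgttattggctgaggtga

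Top2a, whose product untangles DNA before chromosomes part, held 4 CHR and 4 CCAAT matches in the stretch shown, and Mki67, whose product coats mitotic chromosomes, held 2 of each. Over windows from 250 bases before the start to 50 after it, CHR letters were present in 34 of the 44 genes of a G2 and M list that had a window (77.3%), against 6 of 30 genes of an S list (20%) and 21.7% of all 27018 genes with a window. E2F letters were present in 12 of the 30 S genes (40%), 3 of the 44 G2 and M genes (6.82%) and 2.61% of all genes. CCAAT was common in both lists, at 75% and 70%, beside 41.1% of all genes. CHR together with CCAAT was found in 61.4% of the G2 and M genes, 13.3% of the S genes and 8.61% of all genes. These are letter matches and not measured binding.

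Mki67 (chr7:135689784-135716361), Top2a (chr11:98992943-99024189), Sirpa (chr2:129592835-129632228) and Stmn1 (chr4:134468320-134473843, stathmin, a protein that destabilises microtubules) are the given markers of these cells, with gene coordinates on GRCm38. The kept L-cDC cells carried 38834112 UMIs in all and the kept M-cDC cells 51895647, of which the cycling cells had 426301 and 1986565. Their median depth was 11293.5 UMIs per cell in L-cDC (range 1058 to 30533) and 12137 in M-cDC (822 to 24658), above the 7372 and 6763.5 of their non-cycling counterparts, which are 351 and 1126 cells of the same rule with Mki67 and Top2a at 0 and no Ccr7 or Fscn1 of 3 or more. The 2 libraries shared 4 barcodes among kept cells and 0 among the cycling cells. A doublet score over the threshold of 0.258 was found in 0 of 34 and 2 of 162 cycling cells.

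The marker Stmn1, which the rule did not use, stood at 1860 CPM (the UMIs of a gene summed over a class and scaled to one fixed total per class) in the cycling cells of L-cDC and 1726 in M-cDC, against 47.3 and 41.0 in the counterparts. A Stmn1 UMI was present in 82.4% and 90.7% of cycling cells and in 15.7% and 12.6% of counterparts. Sirpa, one of the genes of the rule, stood at 136 and 167 CPM and was found in 64.7% and 79.6% of cycling cells. In cycling cDC1, defined by Xcr1 or Clec9a, no Ccr7 or Fscn1 of 3 or more and the same Mki67 and Top2a threshold and 33 and 169 in number, a Sirpa UMI was found in 6.06% and 11.2% of cells at median depths of 22284 and 19678 UMIs. Of the given markers, Stmn1 alone is independent of the rule, and the levels of Mki67, Top2a and Sirpa were set by the choice of cells.

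The cells near the threshold differed from those far above it. Mki67 and Top2a together had a median of 14.5 UMIs per cycling cell in L-cDC (highest 92) and 13 in M-cDC (highest 71), and 21 of 34 and 95 of 162 cells had 10 or more. In these well-marked cells the other genes of the 13 cycle lists made up a median of 68254 CPM in L-cDC and 65640 in M-cDC. Just inside the threshold, at 2 UMIs, the medians were 16265 (7 cells) and 14676 (24 cells). Just outside it, at 1 UMI, they were 6879 (31 cells) and 9203 (127 cells), beside 7061 and 8146 at 0. Thus the group held a minority of cells with few other cycle transcripts, and few cells just outside it had many. When each cell was thinned to 3000 UMIs, 21 of 30 and 123 of 159 cycling cells had 30 or more UMIs of the S and the G2 and M lists, a level set at the lower quartile of these same cells, against 0 of 25 and 4 of 123 of the cells with 1 UMI of the rule genes.

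**Figure D1:**
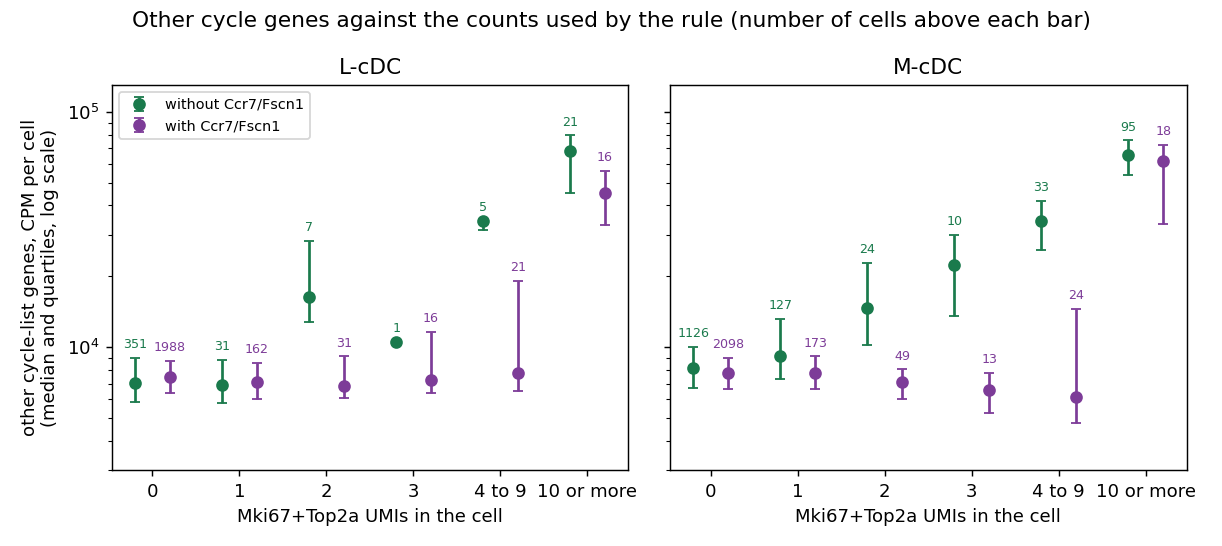
Level of the other cycle-list genes in each cell (CPM, log axis) against the Mki67 and Top2a UMIs of the cell, for eligible Xcr1-negative DC of each library, where points are medians, bars run from the lower to the upper quartile and numbers count cells. Without Ccr7 or Fscn1 (green) the medians at 2 or more UMIs lie above those at 0 and 1, highest at 10 or more, although the 1 L-cDC cell at 3 UMIs lies below the median at 2, and with them (purple) the medians stay between 6128 and 7794 CPM up to the 4 to 9 bin and are high only at 10 or more.

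The cells with Ccr7 or Fscn1 behaved otherwise along this scale. At 2 UMIs of Mki67 and Top2a their other cycle genes had medians of 6844 and 7109 CPM, at 3 UMIs 7223 and 6604, and at 4 to 9 UMIs 7750 and 6128, all near the 7469 and 7759 of such cells at 0. At 10 or more UMIs the medians were 45233 in 16 L-cDC cells and 61926 in 18 M-cDC cells. Ccr7 or Fscn1 cells were 85.0% and 65.1% of eligible cells at 0 UMIs of the 2 rule genes, 85.5% and 64.6% at 2 to 3 UMIs, and 43.2% and 15.9% at 10 or more. Doublet scores over the threshold were found in 8.33% of the L-cDC and 14.4% of the M-cDC cells held apart. They were found in 2.46% and 4.34% of mature cells at 0 UMIs of the rule genes. Their Stmn1 level was 479 and 457 CPM, and their level of Cdkn1a, the CDK inhibitor p21, was 445 and 470 CPM, where mature cells at 0 UMIs of the rule genes had 499 and 448. The mature panel led in 69 of the 84 L-cDC cells and 94 of the 104 M-cDC cells. Ccr7 and Fscn1 are in that panel, so its lead is partly fixed by the choice of cells. The part of doublets in these cells was not tested further. Values of the cycling Xcr1-negative DC below leave these cells out, and they appear only as a class of their own.

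Cycling cells were a larger share of the M-cDC library. They made up 0.832% of kept L-cDC cells (34 of 4086, exact 95% interval 0.577 to 1.16) and 2.77% of kept M-cDC cells (162 of 5848, 2.36 to 3.22). Among Xcr1-negative DC eligible by the lineage genes and without Ccr7 or Fscn1, the shares lay closer, at 8.17% (34 of 416, 5.73 to 11.2) and 11.4% (162 of 1415, 9.84 to 13.2), and these intervals overlapped. With each cell thinned to 3000 UMIs they were 6.52% (21 of 322) and 8.50% (111 of 1306). Thinning left out 326 L-cDC and 294 M-cDC kept cells of lower depth.

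Against cDC1 the order of the cycling shares depended on depth. With all UMIs, 12.8% of cDC1 in L-cDC (33 of 258, 8.97 to 17.5) and 18.5% in M-cDC (169 of 912, 16.1 to 21.2) passed the Mki67 and Top2a threshold, more than among Xcr1-negative DC. At 3000 UMIs per cell, 5.58% (14 of 251) and 8.26% (74 of 896) of cDC1 passed, slightly less than the 6.52% and 8.50% of Xcr1-negative DC, and the intervals overlapped in both libraries. No difference between the 2 lineages was detectable among the cells that reached this depth. Thinning kept 322 of 416 Xcr1-negative DC and 251 of 258 cDC1 in L-cDC, and 1306 of 1415 and 896 of 912 in M-cDC. It thus left out more of the Xcr1-negative DC, and the effect of that loss was not tested. In Xcr1-negative cells with Ccr7 or Fscn1 the shares were 3.76% and 4.38% with all UMIs and 1.56% and 1.73% thinned.

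**Figure D2:**
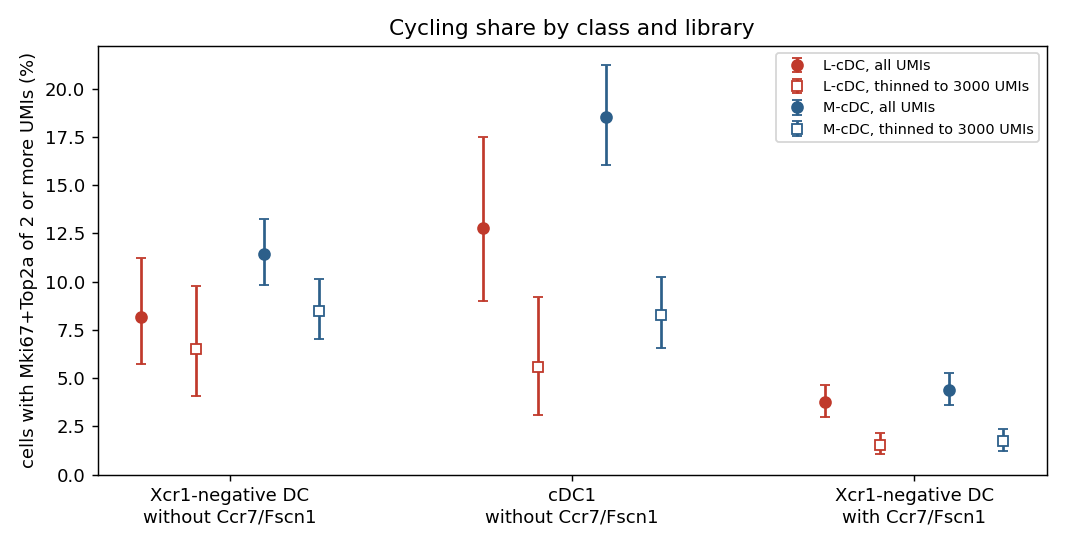
Share of cells (%) with 2 or more UMIs of Mki67 and Top2a in 3 classes of each library, with all UMIs (filled) and with each cell thinned to 3000 UMIs (open), with exact 95% intervals for counting error. Xcr1-negative DC lie below cDC1 with all UMIs and beside them after thinning, while cells with Ccr7 or Fscn1 are lowest in both libraries.

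Most cycling cells carried S and G2 and M transcripts together. At 3000 UMIs the median cycling cell had 7 S-list and 25.5 G2 and M-list UMIs in L-cDC (30 cells) and 13 and 30 in M-cDC (159 cells), against 1 and 2, and 1 and 3, in counterparts. Expressed as the G2 and M part of the 2 lists together, the median was 80.9% in L-cDC (quartiles 50.8 to 91.6) and 65.3% in M-cDC (50 to 84.1). Cycling cDC1 had 67.8% and 60.7%, and counterparts, with very few UMIs of either list, 66.7% in both libraries. The quartiles of all these classes overlapped. Among cycling cells with at least 3 UMIs of the lists, S UMIs outnumbered G2 and M UMIs in 7 of the 30 from L-cDC and in 36 of the 155 from M-cDC, and 15 and 49 cells had a G2 and M part of 80% or more. The balance is that of the lists and not a phase call.

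**Figure D3:**
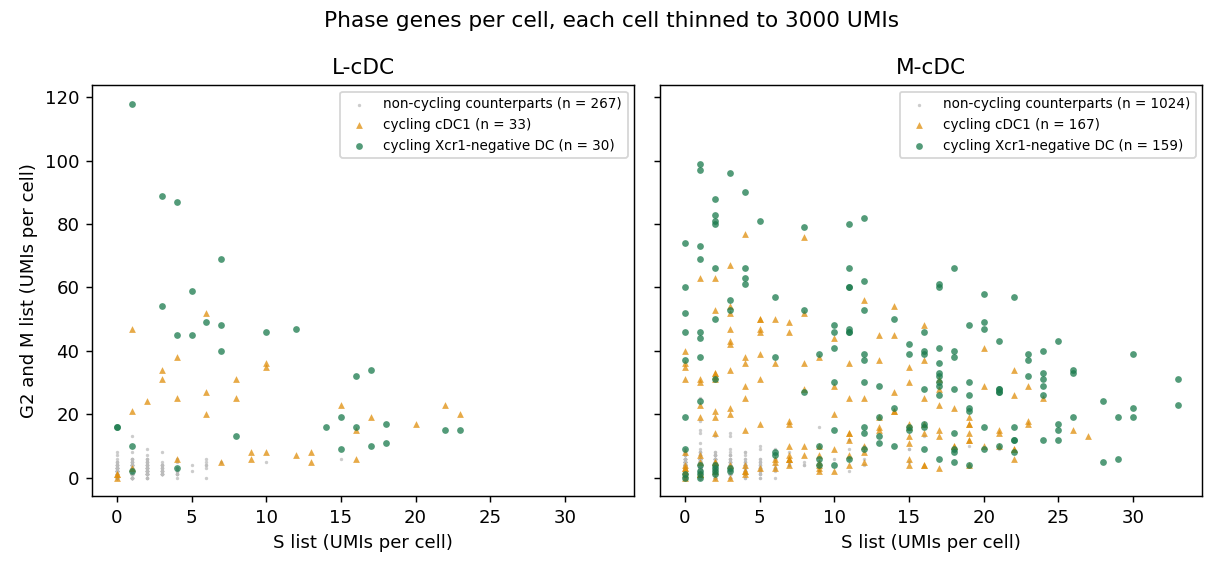
UMIs of the S list (x axis) and of the G2 and M list (y axis) in each cell thinned to 3000 UMIs, with 1 point per cell. Cycling Xcr1-negative DC (green) spread from cells rich in G2 and M genes at low S counts to cells with 15 or more S UMIs and fewer G2 and M UMIs, and reach up to 118 G2 and M UMIs in L-cDC and 99 in M-cDC, where cycling cDC1 (orange) reach 52 and 77, while counterparts (grey) and some cycling cells lie near the origin.

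Which DC type the dividing cells resembled was read from 4 panels of genes, where a panel's share of a cell's UMIs is divided by its mean share in the counterparts and the panel with the highest quotient, on at least 3 UMIs, leads. The Notch2-dependent cDC2 panel, with Ltb (lymphotoxin beta), Ffar2 (a receptor for short-chain fatty acids), Esam and Clec4a4 among its genes, led in 22 of 34 L-cDC cycling cells (64.7%, 46.5 to 80.3) and 133 of 162 M-cDC cells (82.1%, 75.3 to 87.7). It led in 24.5% and 52.0% of counterparts. The panel of plasmacytoid and transitional DC led in 6 L-cDC (17.6%) and 10 M-cDC (6.17%) cycling cells, the monocyte-like panel in 2 and 10, and the mature panel in 3 and 7, while 1 and 2 cells had no leading panel. In counterparts of L-cDC and M-cDC the plasmacytoid and transitional panel led in 24.8% and 9.59%. The monocyte-like panel led there in 16.5% and 17.0%, and the mature panel in 31.3% and 18.9%. In 9 of 34 and 27 of 162 cells a second panel came within 1.5-fold. Ltb is in the rule and in this panel, so the panel's lead is partly fixed by the choice of cells.

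Read the other way, 18.8% of all Notch2-panel cells in L-cDC (22 of 117, 12.2 to 27.1) and 16.7% in M-cDC (133 of 798, 14.1 to 19.4) were cycling. Monocyte-like cells cycled in 3.08% (2 of 65) and 4.55% (10 of 220), plasmacytoid and transitional cells in 5.71% (6 of 105) and 7.52% (10 of 133), and mature-panel cells in 2.54% (3 of 118) and 3.00% (7 of 233). The part of depth in this order was not tested. The median was 8130 and 7131.5 UMIs in Notch2-panel cells, 10108 and 9356.5 in monocyte-like cells, and 11157 and 9812 in plasmacytoid and transitional cells, with the mature-panel cells lowest at 2706 and 4814.

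Most conventional DC genes lay within 1.5-fold of their counterpart level, while 6 of 13 MHC class II genes were lower in M-cDC. Because the rule used the contrast with counterparts, all values against them are descriptions. Over 5406 genes considered in both libraries (at least 20 CPM in the higher class and 30 UMIs over both), 15.3% were 1.5-fold higher in cycling cells in both libraries and 6.2% were 1.5-fold lower (829 and 335 genes), and the median log2 ratios were 0.12 and 0.09. Taken library by library, 25.6% and 21.1% of genes were higher and 17.2% and 9.56% lower in L-cDC and M-cDC. With CPM computed without mitochondrial, ribosomal protein and immunoglobulin genes, 755 genes were higher and 537 lower in both. Of 20 conventional DC genes considered, 0 were higher and 1 lower in both libraries (Zeb2, a transcription factor of cDC2 and plasmacytoid DC development, at 164 against 285 CPM in L-cDC and 88.6 against 244 in M-cDC), with median log2 ratios of -0.18 and -0.23. Flt3, the receptor of the main DC growth factor, stood at 152 and 111 CPM against 203 and 166. Of 13 MHC class II genes, 0 were higher and 1 lower in both (Ctss, the protease cathepsin S), with medians of -0.29 and -0.53. Library by library, 2 of the 13 were lower in L-cDC and 6 in M-cDC. Cd74, the invariant chain, was 0.860 times its counterpart level in L-cDC and 0.747 times in M-cDC. Of 5 genes of the Notch2 panel, 0 were higher and 0 lower in both libraries.

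**Figure D4:**
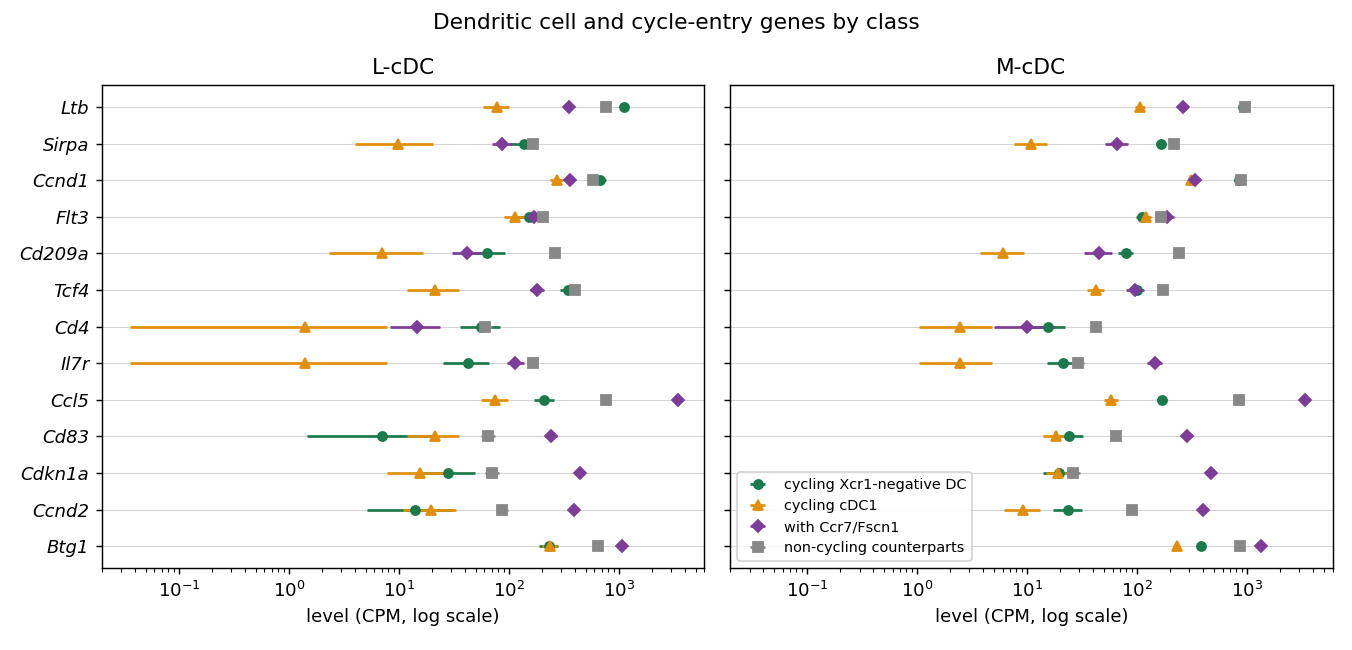
Levels (CPM, log axis) of 13 DC and cycle-entry genes in 4 classes of each library, with exact Poisson 95% intervals as bars. Ltb, Sirpa and Ccnd1 in cycling Xcr1-negative DC (green) lie near their counterparts (grey) and above cycling cDC1 (orange), while Ccl5, Cd83, Ccnd2 and Btg1 lie below the counterparts and far below the cells with Ccr7 or Fscn1 (purple).

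Genes of the monocyte-like, mature and plasmacytoid panels were lower in the dividing cells. Some of them passed the level filter only through the counterparts, so their counts describe the cells and support nothing further. Of all genes considered, 6.2% were lower in both libraries. Of 9 monocyte-like genes, 7 were lower and 0 higher in both libraries (median log2 ratios -2.05 and -1.39). Lyz2, lysozyme of myeloid cells, stood at 246 CPM in cycling L-cDC cells against 1629 in counterparts, and at 79.5 against 1196 in M-cDC. In L-cDC 52.4% of the Lyz2 UMIs of the cycling cells came from 1 cell. Cd209a, a lectin of the DC-SIGN family and one of the genes of the rule, stood at 63.3 against 263 CPM and 79.0 against 243. Of 15 mature-DC genes, 11 were lower and 0 higher, among them Ccl5, a chemokine, at 211 against 765 CPM and 170 against 856, and Cd83, which stabilises MHC class II at the surface, at 24.2 against 64.6 CPM in M-cDC and at 7.04 (3 UMIs) against 64.8 in L-cDC. Of 8 plasmacytoid and transitional genes, 5 were lower and 0 higher.

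The mix of DC types moved with these differences. When both classes were limited to cells led by the Notch2 panel, 4 of 10 mature genes and 1 of 5 monocyte-like genes were 1.5-fold lower in both libraries. Of all 3823 genes considered there, 4.66% were lower (178, with 449 or 11.7% higher). The median log2 ratios in L-cDC and M-cDC were -1.09 and -0.58 for the mature genes and 0.49 and -0.17 for the monocyte-like genes. In Notch2-panel cells of L-cDC the direction of Cdkn1a turned (log2 ratio 2.23, interval 0.33 to 4.41), on 8 UMIs against 4. Macrophage genes moved with the difference as well. The red pulp macrophage list summed to 25.8 and 26.2 CPM in cycling cells and 234 and 196 in counterparts. C1qa, a complement gene of macrophages, was at 0 UMIs in the 34 L-cDC cells and at 4 in M-cDC. In the Notch2-panel cells of M-cDC it turned to a log2 ratio of 0.75, with an interval of -1.52 to 2.83. The part of macrophage genes in the lower lists was not tested.

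Of 14 growth factor receptors and STAT5 targets considered in both libraries, 4 were lower and 0 higher, Csf1r, Csf2rb, Socs2 and Stat5a, beside 6.2% of all genes lower. Csf1r, the receptor for macrophage colony-stimulating factor, was 1.86-fold lower in L-cDC and 1.82-fold lower in M-cDC, and Csf2rb, the common beta chain of the GM-CSF receptor, was 2.10-fold and 1.72-fold lower. In Notch2-panel cells of L-cDC both turned, to log2 ratios of 0.49 (interval -0.67 to 1.59) and 0.38 (-0.39 to 1.12). Csf1r turned in both libraries (0.56 and 0.029) with the Ccr7 or Fscn1 cells kept in. Socs2, a STAT5 target, stood at 11.7 against 72.7 CPM in L-cDC and 5.54 against 20.1 in M-cDC.

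Il7r transcripts were also lower in the dividing L-cDC cells than in their counterparts, at 42.2 against 167 CPM, and stood at 21.1 against 28.9 in M-cDC. Of the cycling cells, 10 of 34 (29.4%) in L-cDC had an Il7r UMI and 32 of 162 (19.8%) in M-cDC, against 39.6% and 11.9% of counterparts. Cycling cDC1 had 3.03% and 3.55% at their higher median depths of 22284 and 19678 UMIs. The share in dividing Xcr1-negative cells lay above that of cycling cDC1 beyond counting error in M-cDC (13.9 to 26.7 against 1.31 to 7.57), while in L-cDC the intervals met (15.1 to 47.5 against 0.0767 to 15.8).

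The genes of DNA replication were higher together. Many cycle genes passed the level filter only through the cycling cells, so their counts describe the cells and support nothing further. All 13 origin genes, 21 fork genes and 12 nucleotide synthesis genes considered in both libraries were 1.5-fold higher. Mcm5, a subunit of the replicative helicase, stood at 82.1 CPM against 10.6 in L-cDC and 128 against 13.5 in M-cDC, ratios of 7.74 and 9.51. Mcm6 of the same helicase was 5.67-fold and 5.15-fold higher, and Pcna, the sliding clamp of DNA polymerase, 5.03-fold and 6.29-fold. Rrm2, the small subunit of ribonucleotide reductase, stood at 164 and 220 CPM against 2 UMIs in all L-cDC counterparts and 6 in M-cDC. Pclaf, a PCNA-binding factor, reached 859 and 922 CPM, 283-fold (interval 142 to 661) and 190-fold (138 to 270) above counterparts. The helicase genes and Pcna thus had a measurable level in counterparts, whereas Rrm2 and Pclaf had almost none.

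Histone genes of S phase summed to high levels. The 53 replication-dependent histone genes summed to 13425 CPM in L-cDC and 10153 in M-cDC cycling cells, against 739 and 1045 in counterparts, and 24 of the 25 considered were higher in both libraries. Hist1h1b, a linker histone, stood at 2017 and 2618 CPM, 54.4-fold and 46.7-fold above counterparts. Most of these messages lack a poly(A) tail, and many genes of the cluster are near copies of each other, so a 3′ poly(A) kit counts them with unknown efficiency and single genes are uncertain. Hmgb2, a chromatin protein that bends DNA, stood at 3838 and 3826 CPM, 19.3-fold and 13.1-fold higher. All 13 cycle lists together took 5.62% and 5.26% of the UMIs of the cycling cells, and 0.749% and 0.860% in counterparts.

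Genes of mitosis were higher together as well. All 16 mitotic kinase and checkpoint genes, 16 centromere genes and 24 spindle genes considered were higher in both libraries, with median log2 ratios between 4.96 and 6.10. Cdk1, the kinase that starts mitosis, stood at 223 and 194 CPM, 98.1-fold and 101-fold higher. Nusap1, a spindle protein, had 354 CPM in L-cDC against 2 UMIs in counterparts, and 296 CPM in M-cDC against 4 UMIs. Birc5 (survivin, of the chromosomal passenger complex) had 509 and 460 CPM, and Ube2c, which loads ubiquitin for the anaphase-promoting complex, 772 and 470. The G2 and M list as a whole summed to 12801 and 12103 CPM against 840 and 1026, and the S list to 3664 and 4481 against 503 and 584. The median log2 ratio was 5.06 and 4.83 for the G2 and M list and 2.95 and 3.15 for the S list. Since Mki67 and Top2a chose both classes, nothing is read from that order.

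**Figure D5:**
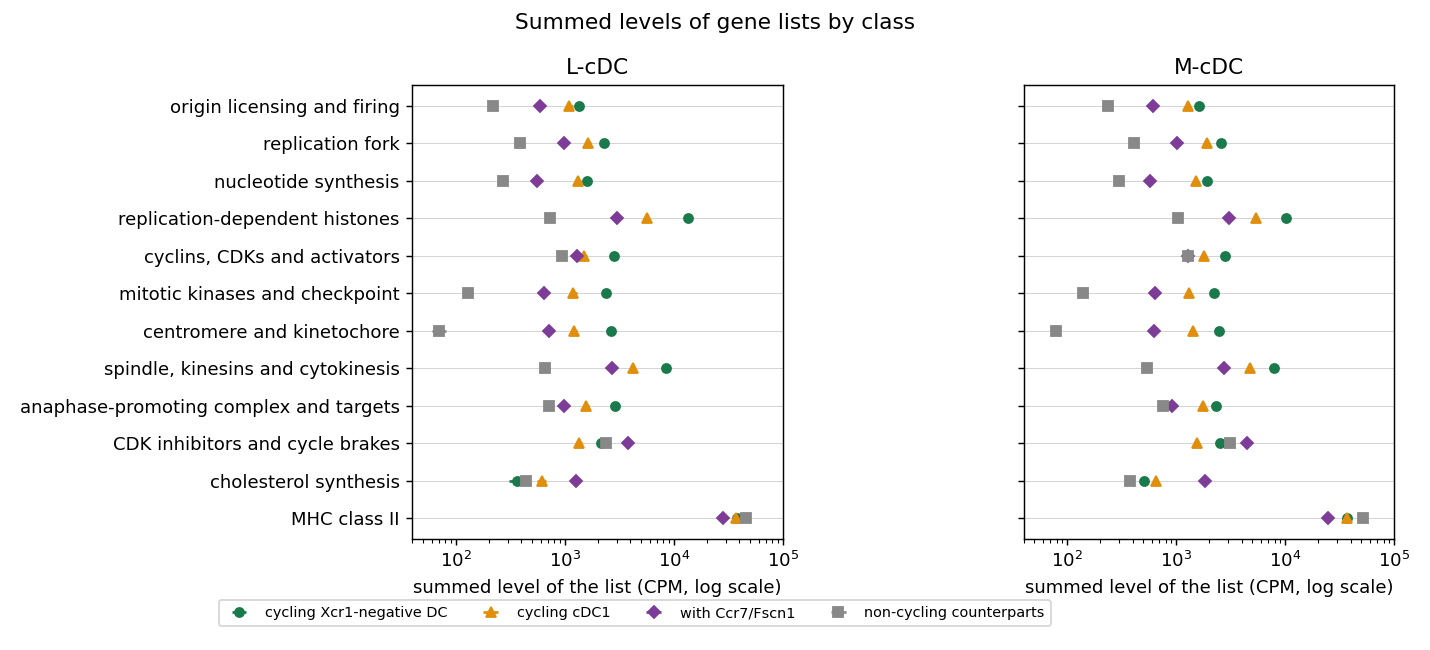
Summed levels (CPM, log axis) of 12 gene lists in 4 classes of each library, with exact Poisson 95% intervals that are mostly narrower than the points. In the first 9 lists cycling Xcr1-negative DC (green) have the highest level in both libraries and counterparts (grey) the lowest, except that cells with Ccr7 or Fscn1 (purple) and counterparts lie together for the cyclins in M-cDC.

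Cycle-entry genes followed no single direction. Ccnd1, the D-type cyclin with the highest level, was near its counterpart level over all cells: it stood at 678 CPM in cycling L-cDC cells against 585, and at 852 in M-cDC against 885. Ccnd2 was 6.19-fold lower in L-cDC (interval 2.80 to 17.0) and 3.80-fold lower in M-cDC (2.82 to 5.21). Ccnd3 was 1.26-fold and 1.23-fold higher. Among Notch2-panel cells alone Ccnd1 was lower in cycling cells in both libraries, at 566 against 991 CPM in L-cDC, which turns the direction there, and at 891 against 1138 in M-cDC. In the cells with Ccr7 or Fscn1, Ccnd2 stood at 390 and 400 CPM.

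Of 17 CDK inhibitors and other brakes, 4 were higher and 3 lower in both libraries, beside 15.3% and 6.2% of all genes considered. Btg1, an antiproliferative gene of quiescent cells, stood at 230 against 645 CPM in L-cDC and 386 against 865 in M-cDC, and Btg2 at 213 against 389 and 319 against 624. Cdkn2c, the CDK4 and CDK6 inhibitor p18, was 7.25-fold and 4.57-fold higher. Cdkn1b, the inhibitor p27, was level with counterparts, at ratios of 1.06 (0.760 to 1.46) and 0.982 (0.849 to 1.13). Cdkn1a stood at 28.1 against 70.4 CPM in L-cDC and 19.6 against 26.2 in M-cDC.

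Metabolic lists moved less. Of all genes considered against counterparts, 15.3% were higher and 6.2% lower in both libraries. The counts of ribosome biogenesis and oxidative phosphorylation genes lay not far from these shares, and nothing is read from them. Of 18 ribosome biogenesis genes 4 were higher and 0 lower in both libraries, with Ncl (nucleolin) 1.62-fold and 2.01-fold higher. Of 12 glycolysis genes 6 were higher and 1 lower: Gapdh was 2.59-fold and 2.16-fold higher, while Aldoa, another enzyme of the pathway, was 3.98-fold and 2.61-fold lower. Of 39 oxidative phosphorylation genes 9 were higher and 0 lower. Of 9 cholesterol genes 0 were higher and 0 lower in both, and their median log2 ratio was -0.47 in L-cDC and 0.45 in M-cDC.

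The dividing cells of the 2 libraries were compared directly, L-cDC over M-cDC. Of 5776 genes considered, 7.91% were 1.5-fold higher and 11.5% were 1.5-fold lower in L-cDC, and the median of all log2 ratios was -0.03. Counting error alone put 10.92% of unchanged genes past 1.5-fold in simulated counts of this comparison, so many of these calls may be noise. With 34 cells on one side, single cells weigh heavily: without the cell that held most UMIs of each gene, 163 genes were higher in place of 457. The rule genes were close, with Mki67 at 636 and 638 CPM, Top2a at 760 and 828, Sirpa at 136 and 167 and Ltb at 1114 and 918. Stmn1 had a ratio of 1.08 (0.996 to 1.16).

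Tcf4, which encodes the E protein that directs plasmacytoid DC, was the rule gene that differed. It stood at 342 CPM in L-cDC and 99.2 in M-cDC, a ratio of 3.45 (2.77 to 4.30), with 25.3% of the L-cDC UMIs in 1 cell. In cells led by the Notch2 panel alone it stood at 183 and 78.2 CPM, where their Notch2-panel counterparts had 130 and 90.9. The plasmacytoid and transitional panel also led in more counterparts of L-cDC (24.8%) than of M-cDC (9.59%), so a higher level in L-cDC is not particular to dividing cells. Of 5 plasmacytoid and transitional genes considered, 3 were higher in L-cDC and 0 lower, Tcf4 with Runx2 (63.3 and 29.2 CPM) and Spib (54.0 and 31.2 CPM), transcription factors of that lineage. The median log2 ratio of the list was 0.79. Cd4, the T cell coreceptor that some cDC2 carry, stood at 56.3 and 15.6 CPM and was found in 12 cells of L-cDC and 24 of M-cDC. Of 6 Notch2-panel genes 1 was higher and 3 lower.

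Of 8 monocyte-like genes 3 were higher in L-cDC and 0 lower, with a median log2 ratio of 0.51. Lyz2 stood at 246 and 79.5 CPM, and Clec12a, an inhibitory lectin, at 91.5 and 32.2. Cx3cr1, the fractalkine receptor, stood at 37.5 and 17.6. Single L-cDC cells held 52.4%, 33.3% and 37.5% of these UMIs, and with the Ccr7 or Fscn1 cells kept in Lyz2 turned to a log2 ratio of -0.26. Apoe (apolipoprotein E) had the highest ratio of this comparison, 176 against 15.1 CPM, and 46.7% of its L-cDC UMIs lay in 1 cell. The genes with the lowest ratios rested on 1 to 3 L-cDC UMIs each, as Osgin2 with 1 UMI (2.35 CPM against 22.1) and Cd22, an inhibitory Siglec, with 2 (4.69 against 23.7).

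Within the cycle program, histone genes were the list with most higher calls in L-cDC. Of 42 S genes, 7 were 1.5-fold lower and 0 higher, with a median log2 ratio of -0.21, a count near the 11.5% of all genes that were lower. Mcm4, a helicase subunit, stood at 51.6 and 108 CPM, and Mcm5 at 82.1 and 128. Of 47 G2 and M genes 1 was higher and 3 lower, with a median of 0.10. Ube2c stood at 772 and 470 CPM, and Ccnb1 (cyclin B1) at 115 and 63.4, and both turned (log2 ratios -0.15 and -0.026) with the Ccr7 or Fscn1 cells kept in. Of 33 histone genes 11 were higher and 0 lower, with a median of 0.26, beside 7.91% of all genes higher. Hist1h2ap, an H2A gene, stood at 3181 CPM in L-cDC and 1322 in M-cDC, a ratio of 2.41 (2.25 to 2.57), found in 29 of 34 and 116 of 162 cells with 10.5% of L-cDC UMIs in 1 cell. Hist1h2ai had 56.3 and 14.6 CPM, whereas the linker histone Hist1h1b had 2017 and 2618. In Notch2-led cells alone 11 histone genes were higher and 1 lower, and 17 of 42 S genes were lower and 0 higher, where 8.39% of all 5718 genes considered were higher and 15.5% lower.

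Cholesterol genes were the metabolic list that stood lower in L-cDC. Of 9 considered, 6 were 1.5-fold lower and 0 higher, with a median log2 ratio of -0.84. Within Notch2-panel cells 4 of 10 were lower and 0 higher, with a median of -0.36. Idi1, an isomerase of the pathway, stood at 16.4 and 46.8 CPM. Cyp51, a demethylase of lanosterol, stood at 16.4 and 38.3. Each of these L-cDC values rests on 7 UMIs, and the direction of both genes turned when cells with Ccr7 or Fscn1 were kept in.

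Against cycling cDC1, the dividing Xcr1-negative cells differed in lineage genes, and their G2 and M genes stood higher under a rule that chose both classes by Mki67 and Top2a. Of 4229 genes considered in both libraries, 12.7% were 1.5-fold higher and 6.24% lower, with median log2 ratios of 0.13 and 0.08. Taken library by library, 25.0% and 20.2% were higher and 13.8% and 8.91% lower in L-cDC and M-cDC. The rule separated these classes by Xcr1 and Clec9a and by the lineage genes, so those genes are a description: Sirpa was 13.7-fold and 15.2-fold higher and Ltb 14.3-fold and 8.61-fold.

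S100a4, a calcium-binding protein, stood at 2238 CPM against 63.7 in L-cDC and 2054 against 166 in M-cDC. Cd7, an immunoglobulin superfamily receptor of early lymphoid cells, stood at 265 against 5.66 and 193 against 13.4. Il2rg, the common gamma chain, was 11.1-fold and 4.61-fold higher, and H2-DMb2, of the peptide loader H2-DM, 4.10-fold and 3.86-fold. All 13 cDC1 genes considered were lower, Xcr1 and Clec9a by rule. Only 5 genes of that list passed the level filter when the cycling cells of the 2 libraries were compared. Many of the 13 thus entered through cycling cDC1, where they are high, and their count is a description. Irf8, the transcription factor on which cDC1 depend, stood at 98.5 CPM against 1503 and 74.0 against 1598. Cst3 (cystatin C) stood at 1830 against 17307 and 1813 against 15341, and Mycl, a MYC family member of cDC1, was 3.02-fold and 4.24-fold lower. Genes here were named by the size of their ratio in this same comparison or by their level. Their wide ratios are thus a description of the chosen cells.

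G2 and M genes stood higher in the Xcr1-negative cells. Of 43 considered, 30 were 1.5-fold higher in both libraries and 0 lower (median log2 ratios 0.93 and 0.74), and of 39 S genes 5 were higher and 0 lower (0.44 and 0.46). Cenpf, a kinetochore protein, stood at 357 CPM against 82.1 and 300 against 134, and Plk1, a mitotic kinase, at 82.1 against 22.7 and 70.0 against 32.0. With the Ccr7 or Fscn1 cells kept in, Plk1 turned in L-cDC (log2 ratio -0.054). Mcm5 was level, at ratios of 1.04 (0.659 to 1.61) and 1.13 (0.959 to 1.33). Of 29 histone genes 23 were higher and 0 lower. Depth differed between the classes, at 11293.5 and 12137 UMIs against 22284 and 19678, and its part in these ratios was not tested. Mki67 and Top2a chose both classes, at medians of 14.5 and 13 UMIs per cell against 9 and 8 in cycling cDC1. The higher G2 and M genes are thus a description of the chosen cells.

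Ccnd1 was 2.49-fold and 2.77-fold higher than in cycling cDC1, and Klf4, a transcription factor of cDC2 subsets, 4.46-fold and 2.49-fold. The L-cDC level of Klf4 leaned on 1 cell. Without it the log2 ratio was -0.024 against M-cDC and -0.037 against L-cDC counterparts. Ribosome biogenesis leaned the other way, with 3 of 19 genes lower and 0 higher (medians -0.48 and -0.37), beside 6.24% of all genes lower. Glycolysis had 2 of 12 lower and 0 higher. Cycs (cytochrome c) was 2.11-fold and 1.74-fold lower.

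Markers of other cells were low. The T cell list summed to 33 UMIs in L-cDC cycling cells, 31 of them in 1 cell, and to 6 in M-cDC. All 9 neutrophil genes were at 0 in L-cDC. The cDC1 list summed to 481 and 537 CPM, against 3222 and 3271 in cycling cDC1, and was at 521 and 503 in counterparts. The B cell list, whose Cd79a is at 0 by rule, summed to 239 and 175 CPM, and was at 209 and 205 in counterparts.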

How the data were processed

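Each group is 1 library of spleen DC made with a 10x 3′ kit. Per the file headers, the deposited UMI counts per gene and cell were made with Cell Ranger 6.1.2; the submitters' processing notes name GRCm38 (mm10). Both matrices list 31053 genes. The members, gene lists and comparisons were chosen with earlier results of these data known. Counts were summed over the cells of a class (Python 3.11.15 with scipy 1.17.1) and divided by the class total. Genes entered a comparison with 30 or more UMIs in the pair of classes and 20 CPM or more in whichever class was higher. They were called past 1.5-fold on the ratio alone, without regard to its interval. Intervals are 95%: exact Poisson for CPM, Clopper-Pearson for shares, conditional binomial for ratios, and a class at 0 takes a floor of 3 counts over the class. Doublets were scored with Scrublet (scanpy 1.11.5, threshold 0.258 from M-cDC for both libraries, since the automatic 0.635 of L-cDC was higher) and not removed. Each cell was thinned to 3000 UMIs where depths were matched. Named genes are the rule genes and markers, in each list up to 4 with the largest ratios and up to 4 with the highest levels, and the 12 highest and 12 lowest ratios of each comparison, plus a few cycle and DC genes chosen after their values were seen. Simulated counts carried counting error alone, as the ratio intervals assume, and between 95.65% and 96.67% of intervals held the true ratio. That coverage does not extend to spread between cells. In these counts 10.92% of unchanged genes passed 1.5-fold between libraries. Against counterparts 11.1% did in L-cDC and 0.2797% in M-cDC, and against cycling cDC1 15.9% and 1.042%. Some results on single genes are not reported here.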

Additional observations from a re-analysis of the deposited data

Results flagged for a closer look

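Idi1, an isomerase of cholesterol synthesis, differed in direction between the libraries when cycling cells were set against their counterparts. It stood at 16.4 CPM (7 UMIs) against 38.6 in L-cDC, a log2 ratio of -1.234, and at 46.8 against 25.9 in M-cDC, a log2 ratio of 0.8564. With the Ccr7 or Fscn1 cells kept in, the M-cDC value turned to -0.23, so that the direction no longer differed. The difference between the libraries was not tested, since each has 1 sample.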

How the results depend on the processing

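No paired analysis was possible because each group has 1 library. Each ratio rests on counts of 34 or 162 cells, and the 34 limit what L-cDC can show. Of the values for single genes, 4091 stayed within their counting interval, 607 moved beyond it and 33 turned in direction across the alternatives. Some of these turns came from the floor of 3 counts alone, as given below, and the cause of the others was not tested. With 1 UMI of Mki67 and Top2a as the threshold, cycling cells were 1.59% and 4.94% of kept cells, 15.6% and 20.4% of Xcr1-negative DC and 24.0% and 29.3% of cDC1 (L-cDC, M-cDC), 136 genes were lower than in counterparts, the Notch2 panel led in 73.4% of M-cDC cells and Senp5 turned to a log2 ratio of 0.27 between libraries. With 4 UMIs the M-cDC shares were 2.19%, 9.05% and 12.8%. With the Ccr7 or Fscn1 cells kept in, the shares were 2.89% and 4.55% of kept cells and 4.45% and 7.02% of Xcr1-negative DC, with 15.1% of M-cDC cDC1, and the Notch2 panel led in 34.7% and 61.7%. In that setting log2 ratios between libraries turned for Rilpl2 (0.18), Lyz2 (-0.26), Ube2c (-0.15), Ccnb1 (-0.026), Cdkn2c (-0.24), Idi1 (0.18) and Cyp51 (0.18). Against counterparts they turned for Slfn5 (0.0030) and Csf1r (0.56) in L-cDC and for Csf1r (0.029), Idi1 (-0.23) and Tcf4 (0.13) in M-cDC, and against cDC1 for Plk1 (-0.054) and Hist1h1b (-0.0012) in L-cDC. CPM without mitochondrial, ribosomal protein and immunoglobulin genes gave 537 genes lower than in counterparts. A level of at least 50 CPM left 135 genes higher and 180 lower between libraries and 544 higher and 146 lower against counterparts, and 10 CPM gave 544 lower. Equal weight per cell gave 925 genes higher between libraries. Thinning to 3000 UMIs gave 249 higher between libraries, 360 higher and 221 lower against counterparts, and 94 and 54 against cDC1. The sign of log2 ratios between libraries turned for Osgin2 (0.084), Cd22 (0.53), Iars (0.67), Rnf11 (0.18), Pwp1 (0.084), Senp5 (0.24), Cc2d1b (0.67) and Kti12 (0.53). All of these but Senp5 had no UMI in L-cDC after thinning, so the floor of 3 counts set the value. For them no change of direction is read. The rule applied to thinned cells gave 5.71% and 8.0% of Xcr1-negative DC and 5.07% and 6.94% of cDC1. Without the cell with most UMIs, 163 genes were higher between libraries, and Klf4 turned between libraries (-0.024) and against L-cDC counterparts (-0.037). Alternatives chosen after seeing the data were CPM without cycle genes, leaving out cells with T cell UMIs, and Notch2-panel cells alone. The last gave 449 genes higher and 178 lower than in counterparts. It turned Wfdc17 (-0.033) and Zeb2 (-0.012) between libraries, and against counterparts Cdkn1a (2.23), Csf1r (0.49), Csf2rb (0.38) and Ffar2 (-0.37) in L-cDC and C1qa (0.75) and Ly6c2 (2.07) in M-cDC. Of these, only Cdkn1a and Ly6c2 had an interval that left out an equal level. Ly6c2 had no UMI in the counterparts there, so the floor of 3 counts set its value and no change of direction is read.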
